A study of Mus musculus with 6 samples.

Results

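A set of 33 genes known from fibroblasts, smooth muscle and blood vessels was followed in epithelial sheets of the mouse forestomach, as a measure of how much RNA of non-epithelial cells the sheets held. The genes were chosen by name: every probe whose gene name in the scanner files was one of the 33 was taken, which gave 60 of the 41174 probes on the array. Of the 33, 17 are fibroblast genes, 7 are smooth muscle genes and 9 are endothelial genes. All 33 had a probe well above background in the sample on at least 3 of the 6 arrays, and so were among the 20288 genes tested of 27610 on the array.

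The forestomach is the part of the rodent stomach lined by a stratified squamous epithelium. Beneath it lies a connective tissue in which fibroblasts secrete collagens and proteoglycans, with blood vessels lined by endothelial cells and, further out, layers of smooth muscle that contract through actin, myosin and their regulators. An epithelial sheet is lifted off these layers, and transcripts of fibroblasts, vessels and muscle in its RNA are commonly read as a sign of what came along with it. The cell types have separate marker genes, so the 3 groups can be read apart.

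Control mice carried K5-CreER, a recombinase that tamoxifen switches on and that the keratin 5 promoter drives in basal epithelial cells. The mutants carried K5-CreER and, on both copies of Rosa26, a Sox2 insertion (K5-CreER;Rosa26Sox2/Sox2), and keratin 5 is not a marker of fibroblasts, muscle or vessels. Both groups received 2 doses of tamoxifen at 7 weeks, were 12 weeks old per the labels and were of a mixed 129/Sv and C57/BL6 background. There were 3 control and 3 mutant arrays, each with the sample's RNA in Cy5 and a reference RNA from 11 mouse cell lines in Cy3. The labels call them biological replicates without saying whether animals were pooled. A p-value here therefore sets the difference between groups against the spread of these samples within groups, some of which may be technical. A value here is the log2 ratio of sample over reference for a gene's brightest probe, and a difference is mutant minus control on that scale. The call rule was an adjusted p under 0.05 in limma with Benjamini-Hochberg adjustment over all 20288 genes.

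The arrays did not stand equally far apart. Control 3 had 62.6% of probes well above background in the sample and a median signal of 4.64 times the background, against 73.1% to 76.2% and 11.2 to 12.4 times on the others, and it alone was scanned on another day. Controls 1 and 2, which shared a slide, differed by a scaled median absolute log2 difference of 0.160 and mutants 2 and 3 by 0.104, against 0.325 to 0.732 for other pairs. All mutants were on 1 slide that held no control, so the effects of slide and of genotype cannot be told apart. The deposited table of log2 ratios and the scanner files number mutants 1 and 3 the other way round (correlation of the column for mutant 1 with the scanner values of mutant 3 0.973, with those of its own number 0.886), and the numbers used here are those of the scanner files. Gt(ROSA)26Sor, transcribed from the locus that was targeted, fell from 1.05 ± 0.23 (SD, n = 3) to -2.65 ± 0.08 (SD, n = 3; limma, adjusted p = 0.00115). The Sox2 probe read 6.24 ± 0.15 in the control group and 5.82 ± 0.14 in the mutant group (SD, n = 3 each; limma, adjusted p = 0.143), and no label says whether the transgene holds the probe's sequence. Of 12 genes of squamous epithelium, 11 were above the reference on all 6 arrays.

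What the array reads of these genes is a 60-base stretch of the message. The probes of 4 genes are shown because results below turn on them: the matrix genes Col1a1 and Bgn, the muscle actin Acta2, from a family whose coding sequences are known to be much alike, and the endothelial gene Pecam1. Each holds at least 1 reading frame without a stop codon. They are written 5′ to 3′ in lower case, as the scanner files give them, with the position in build mm9 from the same files.
Col1a1, chr11:94812052-94812111, plus strand: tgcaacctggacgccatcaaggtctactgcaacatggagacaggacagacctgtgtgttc
Bgn, chrX:70738554-70738613, plus strand: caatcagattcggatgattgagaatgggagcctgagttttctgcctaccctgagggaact
Acta2, chr19:34322995-34326249, minus strand: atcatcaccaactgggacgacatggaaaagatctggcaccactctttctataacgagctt
Pecam1, chr11:106542389-106544242, minus strand: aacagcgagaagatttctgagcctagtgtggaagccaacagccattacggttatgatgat
The Acta2 and Pecam1 stretches span 3255 and 1854 bases of genome and so cross an intron, whereas those of Col1a1 and Bgn each lie within 60 bases.

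Across genotypes, none of the 33 genes passed the threshold, on an array on which 577 of 20288 genes did (2.84%). Of the 33, 2 had an unadjusted limma p under 0.05, Bgn and Sparc, against 23.9% of all genes tested. The differences had a median of 0.70 over the 17 fibroblast genes, -0.13 over the 7 smooth muscle genes and 0.23 over the 9 endothelial genes, beside 0.01 over all genes. All 17 fibroblast genes, 2 of 7 smooth muscle genes and 7 of 9 endothelial genes had a positive difference, beside 50.6% of all genes. The 3 mutant values lay above the 3 control values for 5 fibroblast genes, no smooth muscle gene and 1 endothelial gene, where 19.7% of all genes did so, and no gene of the 33 had its mutant values below all controls, where 18.2% did. The 6 of 33 with mutants above all controls are near the share of all genes in that direction, and 0 of 33 in the lower direction are below it. In these bulk samples, fewer cells of a type and less RNA per cell cannot be told apart.

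**Figure D1:**
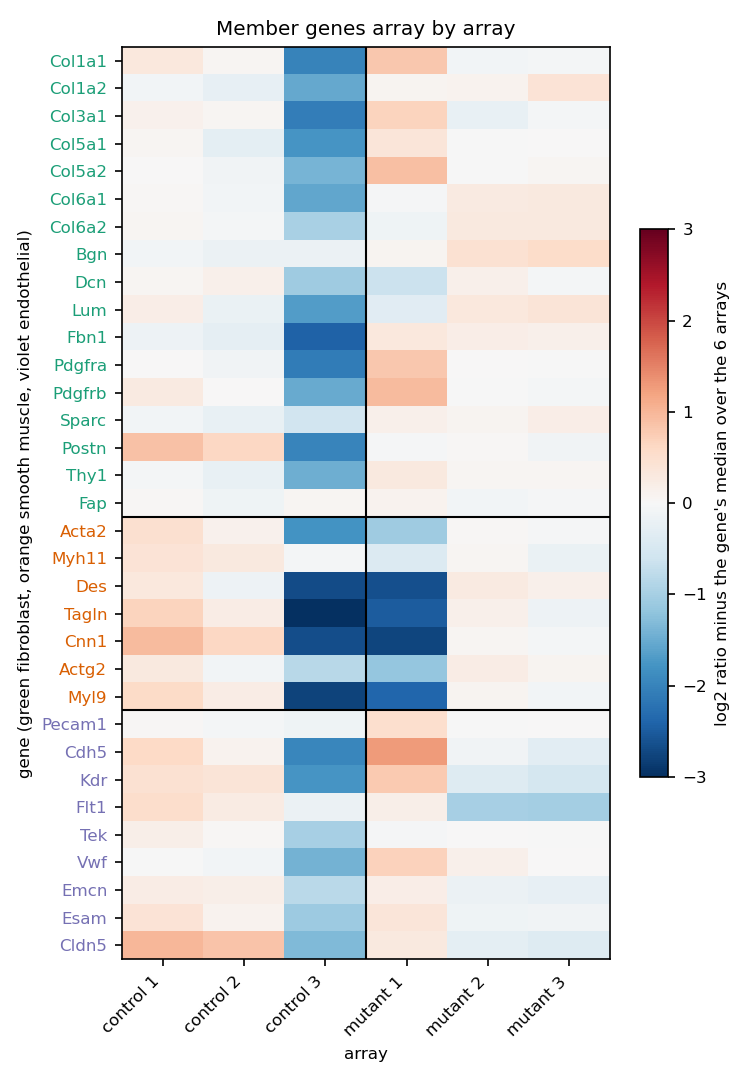
Log2 ratio of each of the 33 genes (vertical, fibroblast, smooth muscle and endothelial genes from top to bottom) on each of the 6 arrays (horizontal), minus the gene's median over the arrays. Control 3 is the lowest array for 16 of 17 fibroblast and 8 of 9 endothelial genes. The smooth muscle genes other than Myh11 are low on both control 3 and mutant 1.

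**Figure D2:**
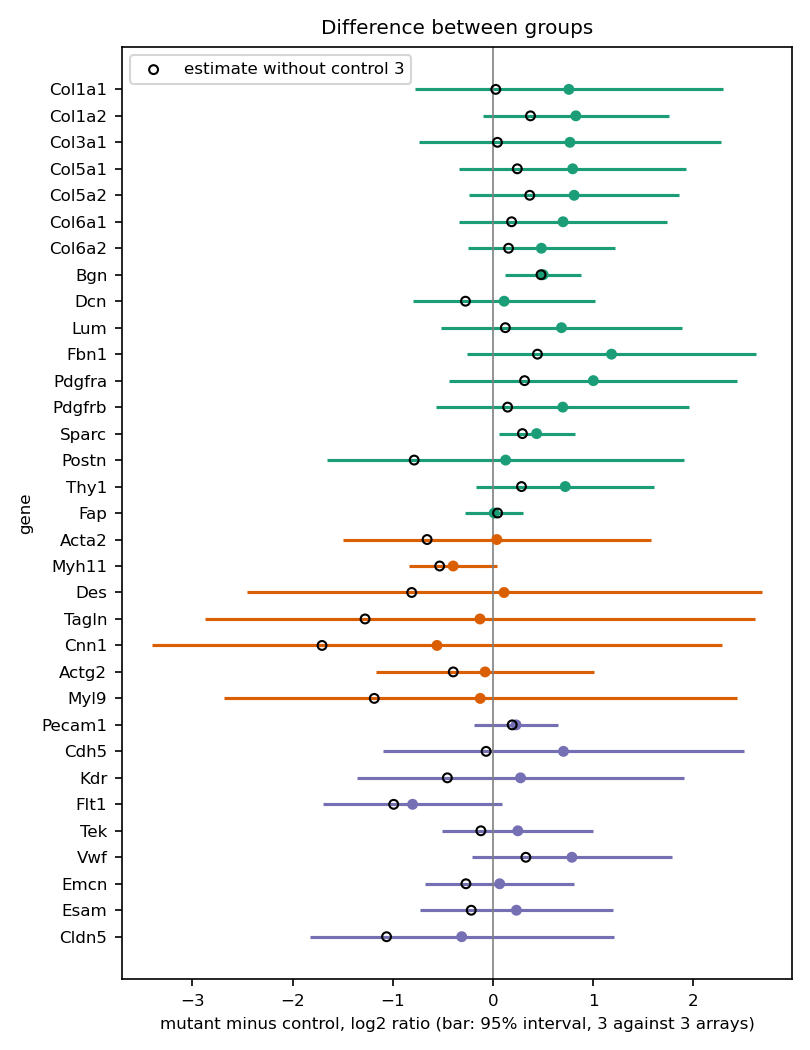
Mutant minus control difference in log2 ratio of each gene (filled points) with its 95% interval from the fit over 3 against 3 arrays (bars), and the estimate without control 3 (open circles). The fibroblast points all lie above 0, and all smooth muscle estimates without control 3 lie below it.

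The fibroblast genes were higher in the mutants as a group of point estimates, and most of that rested on control 3. Their median over the 17 genes was -1.91, -2.01 and -3.48 on controls 1, 2 and 3 and -1.51, -2.19 and -1.98 on mutants 1, 2 and 3. Controls averaged -2.47 ± 0.88 (SD, n = 3) and mutants -1.89 ± 0.35 (SD, n = 3). Without control 3 the median difference was 0.19 in place of 0.70, with 15 of 17 genes positive. Relative to the reference RNA, 14 of the 17 genes were lower on every array and 1, Lum, was higher on every array; the reference comes from cell lines.

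Among the proteoglycans and matrix-binding proteins, Bgn, which encodes the small collagen-binding proteoglycan biglycan, had the smallest p of the 33 genes. Its log2 ratio was -2.90, -3.00 and -3.02 on the controls and -2.76, -2.37 and -2.29 on the mutants. The groups did not overlap, and control 3 sat beside its fellow controls. The difference was 0.50 (SE 0.16), 1.42-fold, with an adjusted p of 0.134 (limma). Sparc, which encodes the collagen-binding glycoprotein osteonectin, read -1.74, -1.88 and -2.23 on the controls and -1.51, -1.57 and -1.45 on the mutants. Again every mutant was above every control, by a difference of 0.44 (SE 0.16; limma, adjusted p = 0.169). Under the 23 alternatives run, the lowest differences were 0.25 for Bgn and 0.28 for Sparc. Dcn, for decorin, read 0.04, 0.14 and -1.07 on the controls and -0.65, 0.15 and -0.06 on the mutants, so that control 3 and mutant 1 were its low arrays. Lum, for lumican, read 2.68, 2.29 and 0.80 on the controls and 2.15, 2.80 and 2.87 on the mutants, with control 3 lowest. The differences were 0.11 (SE 0.38) for Dcn and 0.68 (SE 0.50) for Lum.

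The fibrillar collagens give skin and gut connective tissue their tensile strength. Col1a2, a chain of type I collagen, read -2.48, -2.64 and -3.92 on the controls and -2.29, -2.28 and -1.98 on the mutants. The mutants lay above the controls without overlap, but closest to them was control 1, at a distance much smaller than that between control 3 and the other controls. The difference was 0.83 (SE 0.38; limma, adjusted p = 0.249), and 0.37 without control 3. Col1a1, the partner chain, read -3.67, -3.93 and -5.99 on the controls and -3.19, -4.08 and -4.05 on the mutants, an overlap with a difference of 0.76 (SE 0.64). The further Col1a1 probe printed above read -1.42, -1.52 and -2.99 against -1.27, -1.46 and -1.40, with the same lowest and highest array and a difference of 0.60. A probe nearer the start of the gene, A_52_P658611, did not show the low control 3: it read -1.28, -1.41 and -1.18 against -0.81, -1.35 and -1.42, with a difference of 0.09. Col3a1, of type III collagen, read -1.94, -2.01 and -4.14 against -1.40, -2.27 and -2.11. In both genes mutant 1 was the highest array and control 3 the lowest. The type V chains Col5a1 and Col5a2, which start fibril assembly, had differences of 0.80 (SE 0.47) and 0.81 (SE 0.43), again with mutant 1 highest and control 3 lowest.

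Microfibrils and beaded filaments were read by Fbn1 and the type VI collagens. Fbn1, for fibrillin-1, read -3.01, -3.12 and -5.28 on the controls and -2.53, -2.64 and -2.68 on the mutants. The groups did not overlap; mutants spanned a narrow band while control 3 lay far below. It had the largest difference of the 33 genes, 1.18 (SE 0.60), or 2.27-fold, with an adjusted p of 0.28 (limma). Col6a1 and Col6a2 differed by 0.70 (SE 0.43) and 0.48 (SE 0.30), and their high arrays were mutants 2 and 3 rather than mutant 1.

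Surface proteins of fibroblasts were read by 4 genes. Thy1, a membrane glycoprotein used to sort fibroblasts and also present on T cells and neurons, read -1.67, -1.82 and -3.05 on the controls and -1.31, -1.53 and -1.53 on the mutants. The groups did not overlap, with a difference of 0.72 (SE 0.37; limma, adjusted p = 0.284). Pdgfra, the receptor for platelet-derived growth factor A, read -3.24, -3.38 and -5.37 against -2.46, -3.26 and -3.26, an overlap, with a difference of 1.00 (SE 0.60). Pdgfrb, its partner receptor, which pericytes also carry, read -1.91, -2.15 and -3.68 against -1.22, -2.19 and -2.23, with a difference of 0.70 (SE 0.52). For both receptors mutant 1 was the highest array and control 3 the lowest. Fap, a serine protease of activated fibroblasts, was flat: it read -1.41, -1.57 and -1.39 on the controls and -1.33, -1.52 and -1.48 on the mutants, and its probe was well above background on 5 of 6 arrays. Its difference was 0.01 (SE 0.12, 95% interval -0.27 to 0.30), and it was the 1 fibroblast gene for which control 3 was not the lowest array. The flat reading depended on the processing: with the scanner software's processed signals the difference of Fap was 0.57 (SE 0.47).

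In Postn the mutants lay inside the range of the controls. It encodes periostin, a matrix protein of tissue under remodelling, and read 2.37, 2.11 and -0.50 on the controls and 1.46, 1.52 and 1.37 on the mutants. The 3 mutants lay between control 3 and the other controls, so the difference of 0.13 (SE 0.74) sat in the middle of a wide interval, from -1.65 to 1.91. Without control 3 it turned to -0.79 (SE 0.12) and passed the threshold (limma, adjusted p = 0.0308), the 1 gene of the 33 called in that fit, in which 7.26% of all genes were called and 4.06% were called lower. Control 3 thus decided both its sign and its call.

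The endothelial genes were spread to both sides. Their median over the 9 genes was 3.49, 3.26 and 1.26 on the controls and 2.96, 2.42 and 2.29 on the mutants, or 2.67 ± 1.23 and 2.56 ± 0.35 (SD, n = 3 each). The median difference of 0.23 became -0.22 without control 3, with 2 of 9 genes then positive. In the sheets 8 of the 9 genes were above the reference on every array. The reference signal was well above background on 4 of 6 arrays for Tek and on 5 for Cdh5, Cldn5, Emcn and Kdr. Their ratios thus rest in part on a dim reference. With the scanner software's processed signals the endothelial median difference was 0.04. The signs of Kdr (-0.08), Tek (-0.36), Emcn (-0.41) and Cldn5 (0.05) turned there.

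Among the receptors for vascular endothelial growth factor, Flt1, the high-affinity decoy-like receptor, had the smallest endothelial p. It read 0.05, -0.24 and -0.66 on the controls and -0.29, -1.47 and -1.49 on the mutants. Mutants 2 and 3 lay below every control, but mutant 1 lay among them. The difference was -0.80 (SE 0.37; limma, adjusted p = 0.245). A further Flt1 probe read 0.33, 0.05 and -0.45 against -0.00, -0.71 and -0.70. Its difference of -0.45 had the same sign. Kdr, the main signalling receptor, read 3.49, 3.42 and 1.26 on the controls and 3.81, 2.66 and 2.51 on the mutants. Mutant 1 was its highest array and control 3 its lowest, and the difference of 0.28 (SE 0.67) became -0.46 without control 3. Tek, the angiopoietin receptor, read 2.20, 2.05 and 1.02 against 1.98, 2.03 and 2.01, with a difference of 0.25 (SE 0.31). The 3 mutants were nearly level, with an SD of 0.02, while control 3 was a full log2 unit lower than its fellow controls.

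Of the junction and surface proteins, Pecam1, the adhesion molecule CD31, varied least. It read 0.26, 0.16 and 0.09 on the controls and 0.74, 0.21 and 0.25 on the mutants. Mutant 1 stood above the other 5 arrays, and the difference was 0.23 (SE 0.17; limma, adjusted p = 0.445). Cdh5, for VE-cadherin, read 4.01, 3.52 and 1.45 on the controls and 4.69, 3.30 and 3.10 on the mutants. Its range of 3.24 over the arrays was the widest of the endothelial genes, and the difference was 0.70 (SE 0.75; limma, adjusted p = 0.592). Cldn5, the claudin of endothelial tight junctions, read 3.68, 3.54 and 1.36 against 2.96, 2.40 and 2.29. As with Postn, the mutants lay between control 3 and the other controls, with a difference of -0.31 (SE 0.63) and, without control 3, -1.06. Emcn, for endomucin, read 4.86, 4.82 and 3.83 against 4.85, 4.46 and 4.39, and Esam, an endothelial adhesion molecule, read 3.54, 3.26 and 2.05 against 3.51, 3.02 and 3.03. In both, mutant 1 was level with controls 1 and 2, and the differences were 0.07 (SE 0.31) and 0.23 (SE 0.40).

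Vwf, the clotting factor stored in endothelial granules, was the 1 endothelial gene whose groups did not overlap. It read 2.26, 2.19 and 0.85 on the controls and 2.96, 2.42 and 2.27 on the mutants, with mutant 3 only just above control 1. The difference was 0.79 (SE 0.41; limma, adjusted p = 0.296). Its further probe read 2.12, 1.91 and 0.96 against 3.21, 2.39 and 2.32, with a difference of 0.98. Both probes put mutant 1 highest.

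The smooth muscle genes did not separate by genotype. Their median over the 7 genes was 1.71, 1.25 and -1.30 on the controls and -1.24, 1.26 and 0.95 on the mutants, so that control 3 and mutant 1 were each low within their own group. The group means of these medians were 0.56 ± 1.62 and 0.32 ± 1.37 (SD, n = 3 each). Without control 3 the median difference was -0.81 with 0 of 7 genes positive; without mutant 1 it was 0.39.

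Myh11, the smooth muscle myosin heavy chain, had the smallest p of the group and the narrowest range. It read 4.25, 4.14 and 3.79 on the controls and 3.44, 3.90 and 3.64 on the mutants. Only mutant 2 lay above control 3, and the difference was -0.40 (SE 0.18; limma, adjusted p = 0.245). Cnn1, for calponin, which binds actin and slows the myosin ATPase, read 4.87, 4.55 and 1.27 on the controls and 1.17, 3.98 and 3.87 on the mutants. Its range of 3.70 was the widest of the 33 genes and stood at the 98.9th percentile of all genes. The difference was -0.56 (SE 1.18; limma, adjusted p = 0.795), with a 95% interval from -3.40 to 2.28. Tagln, for the actin-binding protein transgelin, read 1.77, 1.33 and -1.89 against -1.39, 1.26 and 0.94. Myl9, the regulatory myosin light chain, read 1.60, 1.25 and -1.75 against -1.34, 1.11 and 0.95. In these genes the low pair of arrays was the same, control 3 and mutant 1, and the differences of -0.13 (SE 1.14) and -0.13 (SE 1.06) had adjusted p of 0.955 and 0.952 (limma).

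Des, for the muscle intermediate filament desmin, also found in striated muscle, read 1.71, 1.22 and -1.30 against -1.24, 1.66 and 1.55. Its 2 low arrays were thus nearly level, and more than 2 log2 units lay between them and the rest. The difference was 0.11 (SE 1.06). Actg2, the actin of visceral smooth muscle, read 0.79, 0.41 and -0.35 against -0.66, 0.71 and 0.56, with a difference of -0.08 (SE 0.45; limma, adjusted p = 0.928). Since its probe reads coding sequence that other actin messages may share, its value is uncertain. Acta2, the actin of vascular smooth muscle and myofibroblasts, read 0.13, -0.23 and -2.14 against -1.42, -0.32 and -0.38, with a difference of 0.04 (SE 0.64).

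Acta2 had 5 probes past the filter, and they did not read alike. The coding stretch printed above read -0.18, -0.44 and 0.01 on the controls and -0.20, -0.02 and 0.01 on the mutants, a range of 0.46. A probe at the other end of the message, A_52_P210078, read 1.64, 1.22 and -2.40 against -1.06, 1.42 and 1.38, a range of 4.04. The remaining 3 probes ranged over 1.39 to 3.01 and also had control 3 and mutant 1 as their lowest arrays. The coding stretch was the 1 probe of the 5 on which control 3 was not low. How much of its signal came from other actins was not tested.

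**Figure D3:**
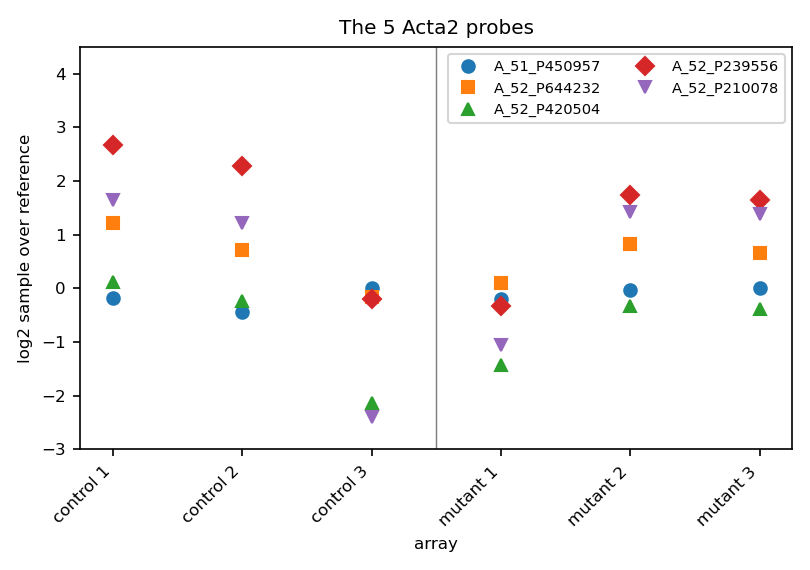
Log2 ratio of sample over reference (vertical) of the 5 Acta2 probes on the 3 control and 3 mutant arrays (horizontal), 1 symbol for each probe. A_51_P450957, the coding stretch, stays within a range of 0.46, while the other 4 probes are low on control 3 and mutant 1.

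The low muscle values of mutant 1 were not shared by the fibroblast or endothelial genes as groups. Pericyte and glandular stomach genes, given below, also had low medians on mutant 1. Mutant 1 was the lowest mutant for 7 of 7 smooth muscle genes, for 6 of 17 fibroblast genes and for 1 of 9 endothelial genes. It was the highest mutant for 0 of 7, 9 of 17 and 8 of 9. Over all genes tested it was the lowest mutant for 47.3% and the highest for 42.1%. Control 3 was the lowest control for 16 of 17 fibroblast genes, 7 of 7 smooth muscle genes and 9 of 9 endothelial genes, and for 51.6% of all genes. As deviations from each gene's median over the 6 arrays, the smooth muscle genes had a median of -2.65 on control 3 and -2.38 on mutant 1. The fibroblast genes had -1.53 and 0.14 on these arrays, and the endothelial genes -1.09 and 0.37. Control 3 was thus low in all 3 groups, and mutant 1 in smooth muscle alone of them.

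The spread over arrays was wide beside that of other genes. The range over the 6 arrays had a median of 3.01 in smooth muscle genes, 2.07 in fibroblast genes and 1.54 in endothelial genes, beside 0.73 over all genes, whose 90th percentile was 1.87. Cnn1, Tagln, Myl9 and Des stood at the 98.9th, 98.8th, 98.3rd and 97.5th percentile, Cdh5 at the 98.1st and Pdgfra at the 97.2nd. At the other end were Fap (range 0.23), Pecam1 (0.65), Bgn (0.73), Sparc (0.78) and Myh11 (0.81).

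Spots of the same probe on an array differed far less than arrays did. For 6 of the genes the probe was printed in 10 spots, so that the noise between spots could be read. The SD between spots of an array lay between 0.02 and 0.16 log2 units over Col1a1, Pdgfra, Acta2, Des, Kdr and Pecam1, while the range over arrays ran from 0.65 in Pecam1 to 3.01 in Des. In Des the SD between spots was 0.06 on control 3 and 0.05 on mutant 1. The gap of these arrays from the others was therefore many times the noise between spots; noise between repeat hybridisations was not measured.

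**Figure D4:**
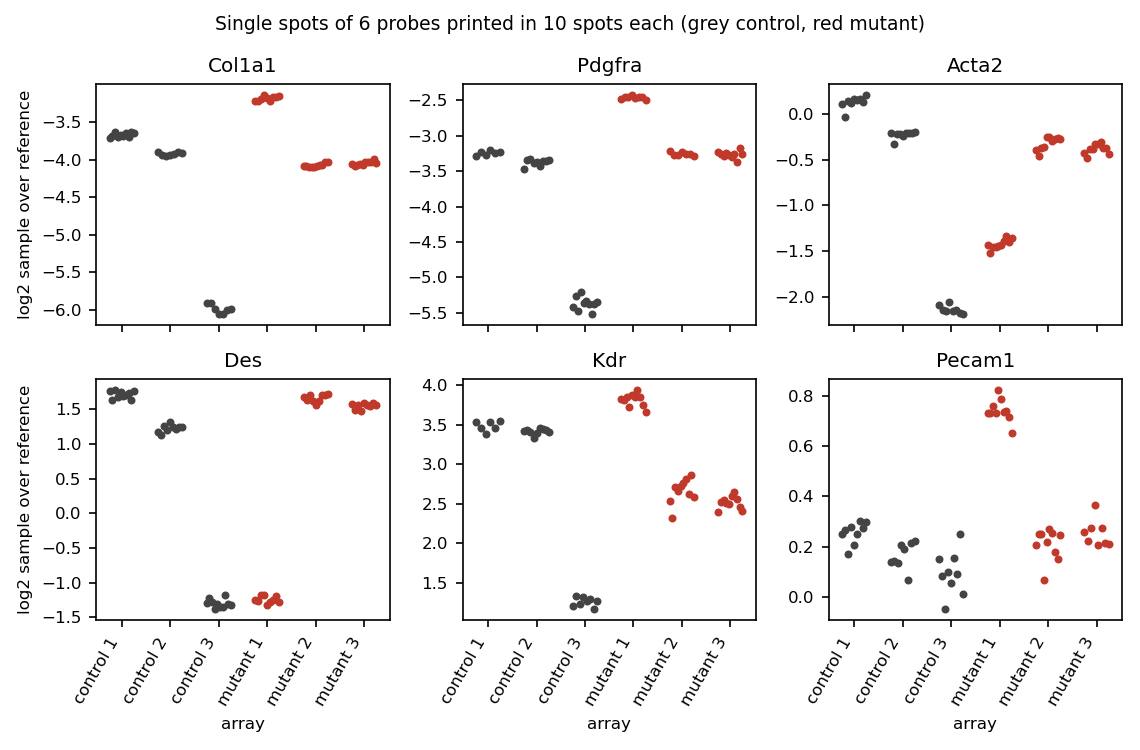
Log2 ratio of sample over reference of every spot (points) of 6 probes printed in 10 spots each, by array (horizontal; controls grey, mutants red). Spots of an array lie within a narrow band, with an SD of 0.02 to 0.16, and the arrays differ by 0.65 (Pecam1) to 3.01 (Des).

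The reference channel also differed between the groups. Over the 33 genes its mutant minus control difference, after loess and Aquantile normalization, lay between -0.48 in Cldn5 and 0.41 in Vwf. In the sample channel after the same normalization the median difference was 0.66 for fibroblast, -0.31 for smooth muscle and 0.19 for endothelial genes. In Cldn5 the sample channel differed by -0.80 and in Vwf by 1.19, so for these genes the ratio gave a smaller difference than the sample channel. In Esam the sample channel differed by 0.00 and the reference by -0.23, so its ratio difference of 0.23 came from the reference. In Dcn, Fap, Actg2, Myl9 and Cldn5 the reference difference was as large as that of the ratio or larger. With the sample channel quantile-normalized without the reference, the medians were 0.72, -0.23 and 0.10.

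Of the 60 probes, 51 passed the filter and 45 were well above background in the sample on all 6 arrays, while 5 were so on none. By the accession the files give, 13 probes were designed on cDNA clones, of which 4 passed and 9 did not, and all 47 others passed. Beside the probes that represent the genes, 14 genes had 18 further probes past the filter, of which 6 had the opposite sign. Pdgfra shows the spread: its 10-spot probe had a range of 2.91 and a further probe read -0.75, -0.81 and -0.83 on the controls and -0.92, -0.84 and -0.75 on the mutants. Col3a1 had a further probe on which control 3 was the highest array, at 0.18, where its representing probe had control 3 lowest. Fbn1, Sparc and Thy1 had further probes with the same sign, with differences of 0.68, 0.83 and 0.34.

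The promoters were searched for the CArG box, the site of serum response factor in front of many contractile genes, since the smooth muscle genes moved together from array to array. The motif was taken as CC, then 6 bases each A or T, then GG, which reads the same way on both strands. In windows from 250 bases before to 50 after the start (RefSeq, GRCm38.p6), 4 of the 7 smooth muscle genes had a promoter entry and 1 of these 4 held the motif. Of the fibroblast genes 10 had entries, with 12 promoters, and of the endothelial genes 5, with 5 promoters, and none of these held it. Over 32851 promoters the share was 1.63%. The match lies in front of Myl9, whose low arrays were control 3 and mutant 1. It is shown from its window on the plus strand, chr2:156775214-156775407, with the motif in capitals, starting 161 bases before the start. The stretch shown ends short of that start, before an earlier transcript start of the gene.
Myl9 promoter: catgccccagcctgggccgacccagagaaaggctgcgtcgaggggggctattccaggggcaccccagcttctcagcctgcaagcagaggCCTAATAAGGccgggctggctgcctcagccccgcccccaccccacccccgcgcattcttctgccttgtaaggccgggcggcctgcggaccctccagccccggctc
A match in this window is a description of the letters, and for the other genes with an entry the search says only that these letters are absent there. Genes without an entry were not searched.

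Further genes of the same cell types were read from longer lists. Of 32 further fibroblast and matrix genes, 1 was called, where 2.84% of all genes were called and 1.4% were called higher. The count is thus near that of all genes. The gene was Pi16, a peptidase inhibitor that marks a class of adventitial fibroblasts. It read -0.84, -0.62 and -1.21 on the controls and 0.53, 0.59 and 0.96 on the mutants. The groups were more than a log2 unit apart, and the difference was 1.58 (SE 0.20; limma, adjusted p = 0.0212), with an adjusted p of 0.019 without control 3. It was called under 15 of 23 alternatives, with adjusted p from 0.000432 to 0.394, and lost, among others, with slide as a random block, with near-identical pairs averaged and without any 1 of controls 1 and 2 and mutants 2 and 3. The median difference of the list was 0.50, with 29 of 32 positive (50.6% of all genes) and 14 with mutants above all controls (19.7% of all genes); without control 3 it was 0.18 with 21 positive. As in the fibroblast genes above, control 3 was the lowest array for most, here 29 of 32.

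The further smooth muscle genes repeated the pattern over arrays. None of 12 was called, the median difference was 0.03 (-0.45 with 0 of 12 positive without control 3), and mutant 1 was the lowest mutant for 12 of 12. Deviations from the gene medians had a median of -1.42 on control 3 and -1.18 on mutant 1 and lay between -0.02 and 0.27 on the other arrays. Tpm2, a tropomyosin, had the smallest p, with mutants below all controls and a difference of -0.61 (SE 0.15; limma, adjusted p = 0.0931). Control 3 was its highest array, whereas it was the lowest array for 7 of the 12. Of 7 genes of striated muscle none was called and their median deviations were -0.22 on control 3 and -0.27 on mutant 1; Myh2, a fast myosin, had a difference of -0.35 (-0.15 without control 3) and Actn3, a sarcomere actinin, one of 0.22 (0.05).

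Of 18 further endothelial genes none was called, with a median difference of 0.49 and 18 of 18 positive. Nos3, the endothelial nitric oxide synthase, read 0.26, 0.25 and 0.13 on the controls and 0.66, 0.98 and 0.92 on the mutants, without overlap. Its difference was 0.64 (SE 0.13; limma, adjusted p = 0.0627). Gpihbp1, which carries lipoprotein lipase into capillaries, differed by 0.78 (SE 0.28; limma, adjusted p = 0.166). Control 3 was the lowest array for 17 of 18 and mutant 1 the highest for 13 of 18, and without control 3 the median was 0.06 with 12 positive.

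Pericytes, which wrap small vessels, gave a median difference of 0.29 over 6 genes and -0.43 without control 3, and none was called. Their deviations from the gene medians had a median of -1.89 on control 3 and -0.53 on mutant 1, the lowest mutant for 4 of the 6. Notch3, a receptor of mural cells, lay lower in all mutants by -0.43 (SE 0.13; limma, adjusted p = 0.133), and Kcnj8, a potassium channel, differed by 0.40 (SE 0.64), or -0.33 without control 3. Of 5 lymphatic genes none was called, and their median difference was -0.26 with 2 positive. Without control 3 that median was -0.71 with 1 positive. Lyve1, a hyaluronan receptor of lymphatic vessels and of some macrophages, read 2.47, 2.23 and 0.20 on the controls and 3.95, 4.18 and 3.90 on the mutants, without overlap. Its difference was 2.38 (SE 0.58, limma, adjusted p = 0.0906). Without control 3 it was 1.66 and passed (limma, adjusted p = 0.0102), where 7.26% of all genes were called. Ccl21a, a chemokine of lymphatic endothelium, read 2.85, 2.73 and -0.05 against 2.15, -0.28 and 0.09, so that mutants 2 and 3 were level with control 3. The difference of Ccl21a was -1.19 (SE 0.97), or -2.14 without control 3. Mmrn1, chosen after its values were seen, had the same low arrays at -0.05, -0.09 and -0.15, beside 2.48, 2.78 and 3.67 on control 1, control 2 and mutant 1.

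Markers of other cells were read beside these. Among 7 leukocyte genes, 2 were called higher (1.4% of all genes were), Cd68, a lysosomal protein of macrophages, by 1.49 (SE 0.17; limma, adjusted p = 0.0168) and Csf1r, the macrophage growth factor receptor, by 0.75 (SE 0.14; limma, adjusted p = 0.0486). Cd68 was called under 16 of 23 alternatives (adjusted p from 4.29e-05 to 0.434) and Csf1r under 7 of 23 (0.00109 to 0.577). Both stayed called without control 3, and both calls were lost, among others, with slide as a random block, with near-identical pairs averaged and without any 1 of controls 1 and 2 and mutants 2 and 3; that of Csf1r was also lost without mutant 1. The 10 genes of glandular stomach, whose columnar mucosa borders the forestomach, had deviations with a median of -2.75 on control 3 and -1.20 on mutant 1. Their median was thus low on the same arrays as that of the smooth muscle genes. Mutant 1 was the lowest mutant for 7 of the 10. It was not for Tff1, for Tff2 (3.20, beside 3.00 and 3.02 on mutants 2 and 3) or for Gkn2 (5.09, beside 5.17 and 4.58). Tff2 and Gkn2, secreted proteins of mucous cells, had the smallest p there, with differences of 0.73 (SE 0.78) and 0.94 (SE 1.27). Without control 3 these turned to -0.24 and -0.64, and the median of the list turned from 0.38 to -0.69 with 0 of 10 positive. The reference channel after loess and Aquantile differed by 2.66 in Tff2 and 1.63 in Gkn2, and by -2.51 to 2.66 over the list. In the sample channel the median difference of the glandular genes was -0.55, opposite in sign to that of the ratio. Of the 12 squamous genes none was called and 10 were lower, with a median of -0.30; Krt15 and Cdh1 had the smallest p (differences -0.56 and -0.91). Without control 3, Epcam, an epithelial adhesion molecule, was called higher by 0.69 (limma, adjusted p = 0.0366), where 7.26% of all genes were called. Red blood cell genes had a median difference of 0.67, Alas2 of heme synthesis 0.91 and Hba-a1 0.67, and none was called; without control 3 the median and Hba-a1 were both 0.24. Schwann cell genes had a median of -0.13 (S100b -0.46, or -0.86 without control 3) and mesothelial genes 0.02 (Msln 1.11, Upk3b -1.08). Msln had no value on control 1, so its difference sets the mutants against controls 2 and 3 alone. The 2 adipocyte genes tested had a median of -0.46 (Fabp4 -0.75, or -0.11 without control 3, and Plin1 -0.16). In Fabp4 the sample channel after loess and Aquantile differed by -0.13 and the reference by 0.61. No gene of these lists was called. The part of these cells in the values of fibroblast, muscle and vessel genes was not tested.

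**Figure D5:**
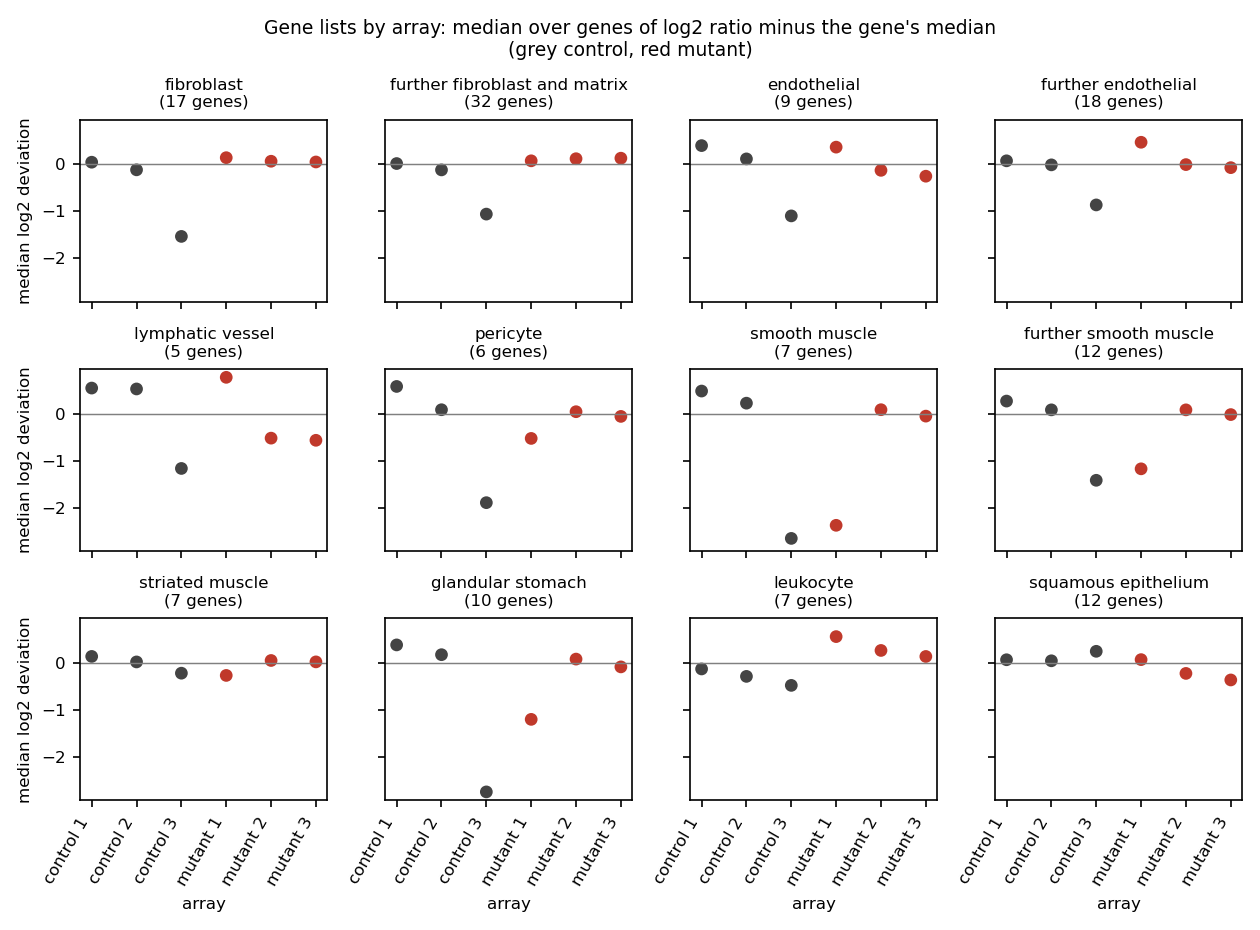
Median over the genes of 12 lists of the log2 ratio minus the gene's own median (vertical) on the 3 control (grey) and 3 mutant (red) arrays (horizontal). Smooth muscle (-2.65 and -2.38), further smooth muscle (-1.42 and -1.18) and glandular stomach genes (-2.75 and -1.20) are low on control 3 and mutant 1, whereas fibroblast and endothelial genes are low on control 3 alone.

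With control 3 and mutant 1 both left out, the call of 14 of the 33 genes changed. These 14 were called in a fit of controls 1 and 2 against mutants 2 and 3, in which 37.6% of all genes were called, 17.7% higher and 19.9% lower, so 14 of 33 is near the background. It sets a pair of near-identical arrays against another such pair, so its p-values may be too small. Of the 14, 6 fibroblast genes were higher: Bgn by 0.62, Col1a2 by 0.43, Fbn1 by 0.40, Col6a2 by 0.30, Col6a1 by 0.29 and Sparc by 0.29. The other 8 were lower: Flt1 by -1.39, Cldn5 by -1.27, Kdr by -0.87, Emcn by -0.41 and Esam by -0.38 among endothelial genes, Cnn1 by -0.79 and Myh11 by -0.42 among muscle genes, and Postn by -0.79. With the near-identical pairs instead averaged to 1 sample each, none of the 33 was called and 0 of all genes were (0%; limma, with 2174 genes at an unadjusted p under 0.05). With array weights, which let the arrays that stand apart count for less, 10 of the 33 were called, 4 higher and 6 lower, beside 38.6% of all genes called, 18.5% higher and 20.2% lower.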

How the data were processed

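RNA of 6 samples had been hybridised to 2-colour Agilent arrays. The authors deposited spot intensity values as the scanner software wrote them, Agilent Feature Extraction 10.5.1.1 (10.7.3.1 for control 3) per the file headers, and 9.1 per the submitters' processing notes. The build is mm9 per the file headers. A deposited table of log2 ratios, of unstated centring, served as an alternative; its columns ran as sample over reference, with medians of 0.052, 0.06 and 0.026 (controls 1 to 3) and 0.042, 0.043 and 0.039 (mutants 1 to 3).

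Signals were corrected by normexp (offset 50), normalized by loess within arrays and tested with lmFit and eBayes in limma 3.58.1 (R 4.3.3), two-sided, with 4 residual degrees of freedom. Control and outlier spots did not enter, and repeat spots were averaged. A gene was read by its brightest probe that was well above background on at least 3 arrays. Of 41174 probes, 33516 were named through RefSeq (GRCm38.p6). The fit was tested on simulated data. The names Myl9 and Esam stand only in control 3's file. Members and lists were chosen with earlier results of these data known. The rule named, array by array, called members and the 5 of each class with the smallest p, and in other lists called genes or else the 2 with the smallest p; more members are given as description, and some items are not reported here. Alternatives concerned background, normalization, channel, filter, probe choice, batch and arrays left out.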

Additional observations from a re-analysis of the deposited data

How the results depend on the processing

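The count of genes called over the array moved by over 1.5 times under several alternatives: 221 with the scanner software's processed signals, 266 with median centring, 302 with the sample channel quantile-normalized without the reference, 343 with that channel after loess and Aquantile, 4 with slide as a random block, 1473 with scan day as a block or within that scan day, 7841 with array weights, 7615 without both control 3 and mutant 1, and 0 with near-identical pairs averaged (577 otherwise). Leaving out 1 array at a time gave 34 to 1473. With the replicate number as a block, 131 genes and none of the 33 were called; same-numbered arrays deviated together by correlations of 0.004, 0.021 and 0.125, so the numbers were not taken as pairs. Array weights called 5 fibroblast, 1 smooth muscle and 4 endothelial genes (38.6% of all genes), and leaving out both arrays 7, 2 and 5. Scan day called 1 fibroblast gene, and leaving out 1 array at a time 0 to 1. Signs turned in called genes for Postn (-0.79 with scan day or without control 3, -0.79 to 0.65 leaving out 1 array at a time, -0.71 with weights, -0.79 without both arrays), Kdr (-0.78 with weights, -0.87 without both), Emcn (-0.38 and -0.41) and Esam (-0.38 without both). Leaving out 1 array at a time, median differences ran from 0.19 to 1.03 for fibroblast, -0.81 to 0.47 for smooth muscle and -0.22 to 0.47 for endothelial genes, and slide as a random block turned that of smooth muscle to 0.22. Under the 23 alternatives 13 genes kept a positive sign and 2, Myh11 and Flt1, a negative one. Signal over background on control 3, and 3 arrays per group, limit the precision.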
